A study of Mus musculus with 6 samples.

Results

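The 10 genes described here build, feed or restrain the mineral of skeletal matrix: Spp1, Ibsp, Dmp1, Bglap, Alpl, Phospho1, Enpp1, Mgp, Smpd3 and Slc13a5. They were taken by symbol from the 55401 genes of a read count table of mouse knee joint articular cartilage, and all 10 were found. RNA came from 6 samples of 10-week-old mice, 3 labelled WT (WT 1 to 3) and 3 labelled as adseverin knockout (CKO 1 to 3). Tamoxifen was given to the WT as well as the CKO mice, 1.5 mg for each 10 g of body weight once a day over 5 days beginning at 8 weeks, so no group was free of the drug. Adseverin, the product of Scin, severs and caps actin filaments. The sources used here do not give the Cre driver, the deleted exons or whether the WT mice carried Cre. They also do not say that every sample is a different mouse, and a p-value therefore reflects sample-to-sample spread that can include technical spread.

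Hydroxyapatite forms where phosphate is plentiful and its inhibitor, inorganic pyrophosphate, is scarce. Enpp1 encodes the ectoenzyme that makes pyrophosphate from ATP, and Alpl encodes tissue-nonspecific alkaline phosphatase, which breaks it down to phosphate. Inside matrix vesicles the phosphatase PHOSPHO1 releases phosphate from phosphocholine, which the sphingomyelinase encoded by Smpd3 supplies. Osteopontin (Spp1), bone sialoprotein (Ibsp) and dentin matrix protein 1 (Dmp1) are SIBLING proteins, acidic secreted phosphoproteins that bind mineral and integrins, while osteocalcin (Bglap) and matrix Gla protein (Mgp) bind calcium through vitamin K-dependent Gla residues. Slc13a5 encodes a citrate importer, and citrate is a component of bone mineral. In articular cartilage mineral is normally confined to the calcified zone next to bone, and matrix Gla protein keeps the rest free of it.

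The libraries held 22664828 to 31014996 reads. Scin had 186, 185 and 219 CPM (read counts scaled to library size with TMM factors) in WT 1 to 3 and 39.1, 29.9 and 29.4 CPM in CKO 1 to 3, which left a fold of 0.166 (log2 fold change -2.59 ± 0.14 SE, edgeR adjusted p = 6.59e-04), so every library matched its label over the whole gene. Of the chondrocyte markers, 10 of 10 passed the filter on low counts. Their summed level was 27736 to 28902 CPM in WT and 29793 to 36148 CPM in CKO, with 9 of 10 log2 fold changes above 0. The exception, Acan, stood at 1273 to 1440 CPM in WT and 708 to 989 CPM in CKO (-0.61 ± 0.13 on the log2 scale, edgeR adjusted p = 0.535). Acan was picked after its values were seen. Of the 10 markers 4 had an unadjusted p under 0.05 in edgeR, against 6.5% of all genes, and 5 had groups that did not overlap, against 12.3%. Markers of bone-forming cells were present beside them: 11 of 12 osteoblast and osteocyte markers passed the filter, and their sum was 11931 to 17378 CPM in WT and 10327 to 18214 CPM in CKO. Fewer cells of a type and less RNA per cell cannot be told apart in such bulk samples.

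None of the 10 genes differed between the genotypes past an adjusted p of 0.05, in a table where 0.00615% of the 16260 genes tested did (edgeR quasi-likelihood test, Benjamini-Hochberg adjustment over all of them). That share is 1 gene, Scin itself. Among the members 5 had a log2 fold change above 0 and 5 below 0, against 50.6% of all genes above 0. The median was 0.07 on the log2 scale, against 0.0037 over all genes tested, and leaving out single libraries moved it between -0.024 (without CKO 3) and 0.108 (without WT 1), with 0.037 without WT 2 and 0.017 without CKO 2. Unadjusted p-values below 0.05 were found for 0 members, against 6.5% of all genes, and 0 members had groups that did not overlap, against 12.3% of all genes. DESeq2 called 0 members as well, while it called 0.444% of the genes to which it gave an adjusted p. The adjusted p-values of the members ran from 0.792 to 0.9998 in edgeR.

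**Figure D1:**
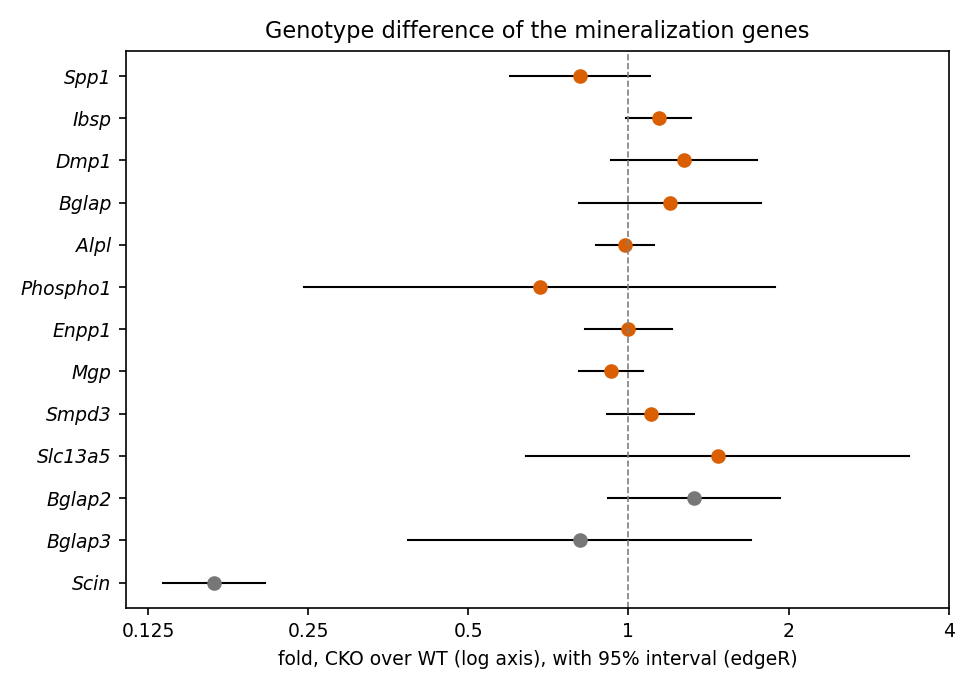
Fold of CKO over WT (log axis) for the 10 members (orange) and, in grey, the osteocalcin copies Bglap2 and Bglap3 and the deleted gene Scin; points are edgeR estimates and lines their 95% intervals, with 3 libraries in each group. The intervals of all 10 members cross 1, those of Alpl and Mgp are narrow, those of Phospho1 and Slc13a5 are wide, and Scin lies at 0.166.

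Levels were compared between genes as RPKM, which is CPM divided by the kilobases of annotated exon. Ibsp was the most abundant member at 12634 ± 1348 RPKM (mean ± SD, n = 6 libraries), the third highest of all genes tested on that scale. Spp1 followed at 2490 ± 573 RPKM and Bglap at 2248 ± 665 RPKM. These neighbours were not separated beyond their spread, with Spp1 above Bglap in 4 of 6 libraries. Of the 50-base windows in Bglap transcripts, 56.6% also occur in another osteocalcin copy. How reads in such windows were treated is not given, so the Bglap level and its place beside Spp1 are uncertain. Mgp at 417 ± 31.0 RPKM and Dmp1 at 393 ± 93.3 RPKM were likewise not separated, Mgp being above Dmp1 in 3 of 6 libraries. Alpl stood at 248 ± 12.7 RPKM and Enpp1 at 232 ± 25.8 RPKM, in that order in 4 of 6 libraries. Smpd3 came next at 148 ± 18.1 RPKM. Slc13a5 at 0.618 ± 0.331 RPKM and Phospho1 at 0.199 ± 0.0592 RPKM lay far below, the step from Smpd3 to Slc13a5 being 240.0-fold. Every step in this order other than the 3 named above held in 6 of 6 libraries. The step from Slc13a5 to Phospho1, however, rests on Phospho1 exon bases that are mostly shared with other genes. It would turn if all counted Phospho1 reads lay in its unshared bases (1.91 CPM per kilobase for Phospho1), which was not tested.

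**Figure D2:**
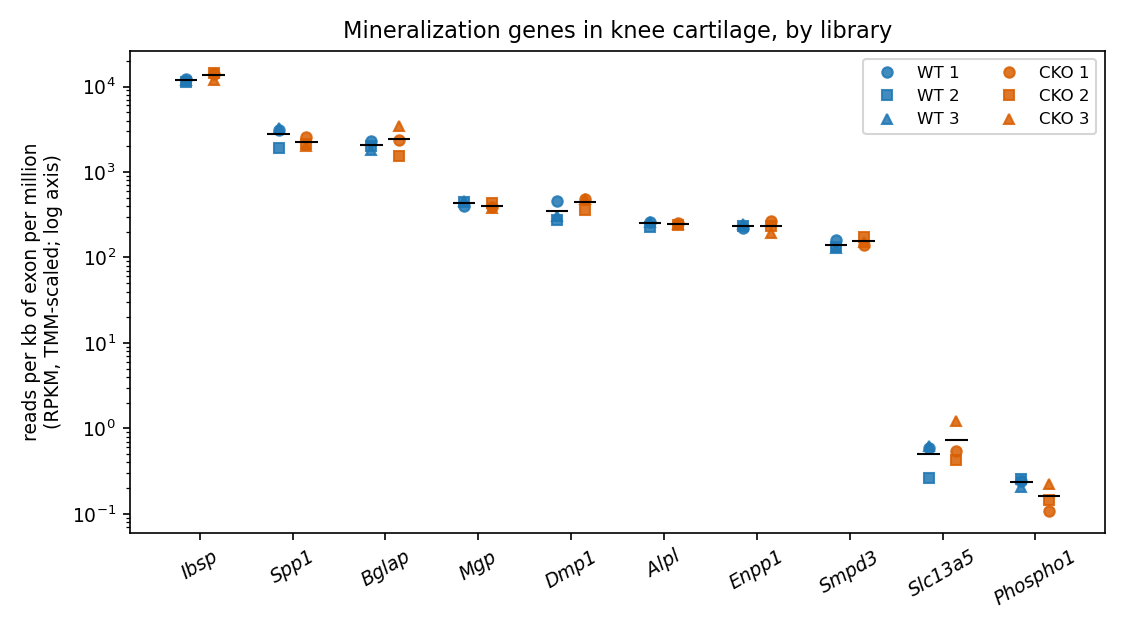
RPKM of each member in each library (log axis), members ordered by their mean, with WT in blue, CKO in orange, one marker shape per replicate number and black bars for group means. The genes from Ibsp to Smpd3 lie above 100 RPKM in every library, Slc13a5 and Phospho1 lie near or below 1, and the groups overlap for every member.

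The most abundant SIBLING gene, Ibsp (GRCm38 chromosome 5, 104299171 to 104311469, plus strand), took 2.30% to 2.94% of all reads, which placed it at rank 1, 4 and 2 by reads in WT and at rank 1, 2 and 2 in CKO. It measured 25513, 23181 and 24558 CPM in WT and 29102, 30048 and 24365 CPM in CKO. CKO 1 and CKO 2 were above every WT library, and CKO 3 lay within the WT range. The fold was 1.14 (95% interval 0.989 to 1.31; log2 fold change 0.19 ± 0.09, edgeR adjusted p = 0.792), the smallest p among the members, and the log2 fold change was 0.28 without CKO 3 and 0.13 without CKO 2. Spp1 (chromosome 5, 104435118 to 104441050, plus strand) measured 5097, 3151 and 5351 CPM in WT and 4221, 3502 and 3304 CPM in CKO. WT 1 and WT 3 were above every CKO library while WT 2 was the lowest of all 6. Its fold was 0.811 (0.600 to 1.10), with an edgeR adjusted p of 0.856, and the log2 fold change was -0.51 without WT 2 and -0.17 without WT 3. Dmp1 (chromosome 5, 104202613 to 104214102, plus strand), which is made mainly by osteocytes in bone, measured 1268, 761 and 838 CPM in WT and 1330, 984 and 1335 CPM in CKO. WT 1 lay among the CKO values, and the other two WT libraries lay below all of them. The fold was 1.27 (0.929 to 1.74), with an edgeR adjusted p of 0.840, and the log2 fold change was 0.60 without WT 1 and 0.20 without WT 2.

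These 3 genes are neighbours on one strand of chromosome 5, with 85.1 kb between Dmp1 and Ibsp and 124 kb between Ibsp and Spp1. Their fold changes did not share a sign. The ratio of Ibsp to Spp1 reads, which does not depend on library scaling, was 5.01, 7.36 and 4.59 in WT and 6.89, 8.58 and 7.37 in CKO, so WT 2 lay among the CKO libraries. The ratio of Ibsp to Dmp1 reads was 20.1, 30.5 and 29.3 in WT and 21.9, 30.5 and 18.2 in CKO, with no order between the groups. Of the Spp1 exon bases, 81.2% belong to no other annotated gene, against 100% for Ibsp and Dmp1.

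Of the Gla protein genes, Bglap (chromosome 3, 88383501 to 88384464, minus strand) is one of 3 osteocalcin copies lying 4.80 kb and 4.99 kb apart. The coding sequences of Bglap and Bglap2 show why their counts are uncertain: of 288 bases 284 are the same, and capitals mark the 4 that differ.
Bglap: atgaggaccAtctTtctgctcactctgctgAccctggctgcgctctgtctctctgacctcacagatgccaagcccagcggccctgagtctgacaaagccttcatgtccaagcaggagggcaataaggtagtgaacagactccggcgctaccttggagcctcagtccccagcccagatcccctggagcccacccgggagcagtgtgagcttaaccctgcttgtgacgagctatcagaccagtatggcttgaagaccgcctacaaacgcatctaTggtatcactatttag
Bglap2: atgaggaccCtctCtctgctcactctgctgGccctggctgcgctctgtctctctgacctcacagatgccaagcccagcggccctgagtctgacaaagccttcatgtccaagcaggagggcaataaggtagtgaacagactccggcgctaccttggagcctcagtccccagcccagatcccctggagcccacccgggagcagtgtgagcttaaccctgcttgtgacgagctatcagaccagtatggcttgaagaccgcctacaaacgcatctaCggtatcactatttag
Both were read from the GENCODE M21 transcripts (GRCm38). Counting 50-base windows of the annotated transcripts, 51.3% of those in Bglap also occur in Bglap2, and 69.2% of those in Bglap2 occur in Bglap. With Bglap3 counted as well, 56.6% of the Bglap windows and 88.2% of the Bglap2 windows occur in another copy. A read inside a shared window cannot be placed on one copy, and the sources used here do not give how such reads were treated.

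Bglap measured 1426, 1255 and 1111 CPM in WT and 1452, 957 and 2135 CPM in CKO, so CKO held both the lowest and the highest library. The fold was 1.20 (0.808 to 1.78; log2 fold change 0.26 ± 0.25, edgeR adjusted p = 0.911). Without CKO 3 its direction turned, to a log2 fold change of -0.07, and without CKO 2 it was 0.50. Bglap2, the neighbouring copy, measured 603, 619 and 487 CPM in WT and 611, 567 and 1092 CPM in CKO. CKO 3 again stood above all others, and the log2 fold change of 0.41 ± 0.23 (edgeR adjusted p = 0.840) was 0.049 without it. The ratio of Bglap to Bglap2 reads was 2.36, 2.03 and 2.28 in WT and 2.38, 1.69 and 1.96 in CKO, so both copies were high together in CKO 3. Bglap3 stood far below, at 6.62, 2.98 and 2.66 CPM in WT and 3.59, 1.98 and 4.39 CPM in CKO. Its log2 fold change of -0.31 was 0.23 without WT 1. With the reads of the 3 copies summed, the log2 fold change was 0.31 ± 0.24 (edgeR adjusted p = 0.889).

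Mgp (chromosome 6, 136872435 to 136875823, minus strand) varied little. It measured 476, 524 and 539 CPM in WT and 459, 517 and 452 CPM in CKO, a range of 1.19-fold over the 6 libraries. CKO 1 and CKO 3 were the lowest and CKO 2 lay among the WT values. The fold was 0.928 (0.808 to 1.07; edgeR adjusted p = 0.897), and the interval spans folds on both sides of 1.

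Of the enzyme pair that sets pyrophosphate, Alpl varied less between libraries than Enpp1. Alpl (chromosome 4, 137741733 to 137796384, minus strand) measured 1044, 922 and 1061 CPM in WT and 1022, 979 and 981 CPM in CKO. All 3 CKO libraries lay inside the WT range. Its fold was 0.985 (0.869 to 1.12; edgeR adjusted p = 0.982), and its log2 fold change of -0.02 turned to 0.016 without WT 3. Enpp1 (chromosome 10, 24637914 to 24712159, minus strand) measured 2253, 2374 and 2515 CPM in WT and 2768, 2397 and 1975 CPM in CKO. The CKO libraries spanned the WT range on both sides, with an SD of 397 CPM in CKO and 131 CPM in WT. The log2 fold change was -0.00040 ± 0.12 (interval of the fold 0.827 to 1.21; edgeR adjusted p = 0.9998), and it was 0.12 without CKO 3, -0.12 without CKO 1 and 0.041 without WT 3. Per kilobase of exon, Alpl stood at 1.18, 0.988 and 1.07 times Enpp1 in WT and at 0.939, 1.04 and 1.26 times Enpp1 in CKO. On this scale, which rests on the annotated exon lengths, the ratio was near 1 in every library, with 1.08 ± 0.0957 in WT and 1.08 ± 0.166 in CKO (SD, n = 3). By reads, without regard to length, Enpp1 stood at 2.01 to 2.71 times Alpl across the libraries.

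Phospho1 (chromosome 11, 95824499 to 95832140, plus strand) had 14, 12 and 11 reads in WT and 5, 9 and 11 reads in CKO. Its fold of 0.681 has an interval of 0.246 to 1.89 (edgeR adjusted p = 0.929), and no difference was detected. Low counts here cannot be read as low expression. Of its 2029 annotated exon bases only 211, or 10.4%, belong to no other gene in GENCODE M21, all of them in the first exon. A Zfp652 transcript on the same strand, annotated as subject to nonsense-mediated decay, shares 89.6% of the Phospho1 exon bases, and the last exon of Abi3 on the opposite strand shares 84.2%. featureCounts by default leaves out reads that fall in exons of more than one gene; the sources used here give neither its settings nor the annotation release used for counting. Zfp652 stood at 82.4 ± 3.94 CPM (WT) and 94.2 ± 6.21 CPM (CKO), and Abi3 at 1.28 ± 0.702 CPM (WT) and 0.784 ± 0.310 CPM (CKO; SD, n = 3). Reads from the shared bases cannot be told apart between Phospho1 and Zfp652. If every counted Phospho1 read lay in the unshared bases, the count would come to 1.91 CPM per kilobase. That is below the 8 abundant members but above the 0.618 RPKM of Slc13a5, a value over all Slc13a5 exon bases. The order of the 2 lowest members therefore depends on where the reads lay, which the counts do not show. The share of Phospho1 reads that was left out was not tested.

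**Figure D3:**
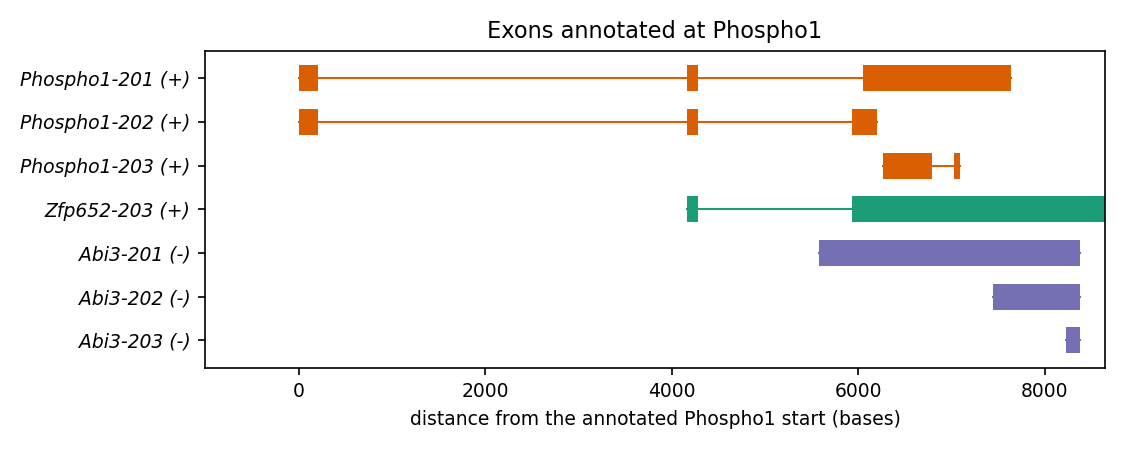
Annotated exons (boxes) of Phospho1, Zfp652 and Abi3 transcripts against the distance in bases from the Phospho1 start, with the strand in brackets; Zfp652 and Abi3 have further exons to the left or right of the window. Only the first Phospho1 exon, which holds the 211 unshared bases, is free of exons of the other two genes.

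The genes that supply phosphocholine and citrate differed widely in level. Smpd3 (chromosome 8, 106252548 to 106337988, minus strand) measured 847, 688 and 679 CPM in WT and 730, 919 and 788 CPM in CKO. CKO 2 was the highest library, and WT 1 was above CKO 1 and CKO 3. The fold was 1.10 (0.912 to 1.33; edgeR adjusted p = 0.900), and the log2 fold change was 0.24 without WT 1 and 0.040 without CKO 2. Slc13a5 (chromosome 11, 72241989 to 72267222, minus strand) had 83, 30 and 82 reads in WT and 61, 64 and 146 reads in CKO. CKO 3 had the most at 6.11 CPM and WT 2 the fewest at 1.32 CPM. Its fold of 1.47 has an interval of 0.643 to 3.37 (edgeR adjusted p = 0.909), and without CKO 3 the log2 fold change turned to -0.04.

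The libraries differed in how many members were highest or lowest in them. WT 2 was the lowest library for 5 members (Spp1, Ibsp, Dmp1, Alpl and Slc13a5). CKO 3 was the highest for 3 (Dmp1, Bglap and Slc13a5) and the lowest for 2 (Enpp1 and Mgp), and WT 3 was also the highest for 3 (Spp1, Alpl and Mgp). CKO 3 was also the highest library for 8 of the 11 osteoblast and osteocyte markers tested. Among these 8 were Ifitm5, an osteoblast membrane protein, at 33.5 CPM against 16.7 to 24.2 CPM in the others, and Sost, the osteocyte Wnt inhibitor, at 82.3 CPM against 43.7 to 61.7 CPM. It was the lowest library for 1 of the 11 markers, Pdpn, at 5.69 CPM against 7.79 to 11.1 CPM. Ifitm5, Sost and Pdpn were picked after their values were seen. The share of all genes that were highest in CKO 3 was not computed. CKO 2, the lowest library for Bglap, was the lowest for 5 of these 11 markers, with Col1a1, the main collagen of bone, at 5201 CPM. WT 1 had the highest Col1a1 level at 9836 CPM, with CKO 3 at 9710 CPM, and the means were 7655 ± 1889 CPM (WT) and 7257 ± 2280 CPM (CKO; SD, n = 3; edgeR adjusted p = 0.980). Of the osteoblast list 6 of 11 tested genes had a log2 fold change above 0 and the median was 0.037. The part of bone cell RNA in the values of Bglap, Dmp1 and Slc13a5 was not tested.

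**Figure D4:**
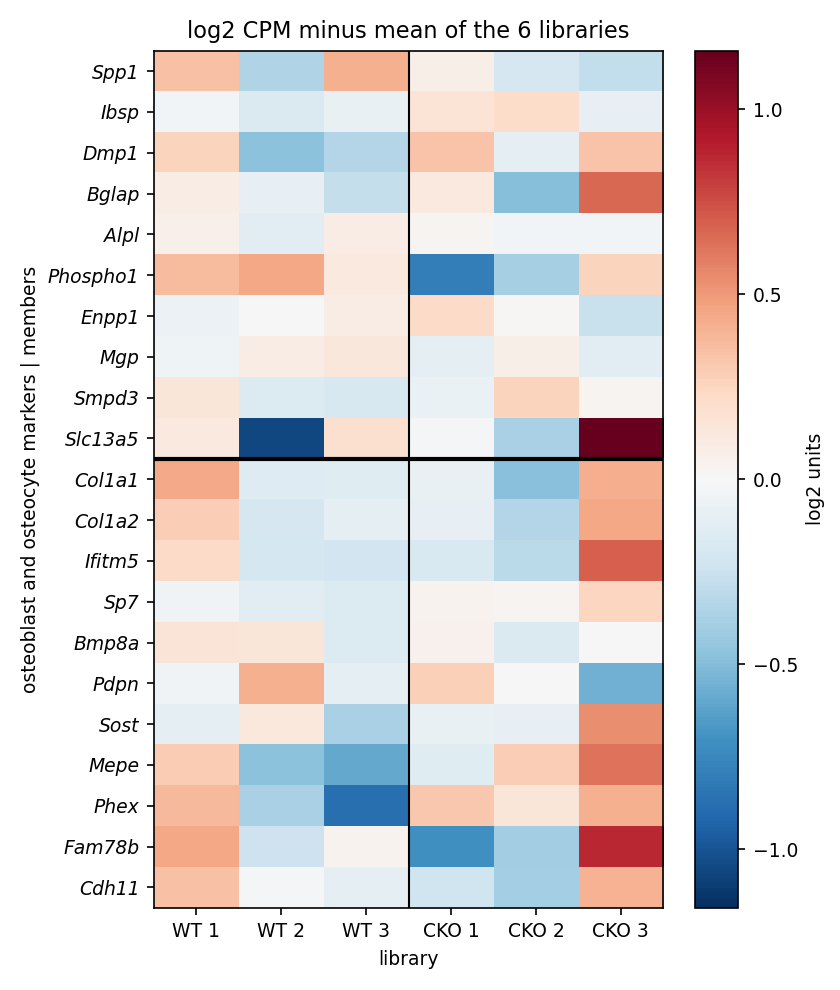
Log2 CPM of each gene minus its mean over the 6 libraries (colour, log2 units) for the 10 members (above the line) and 11 osteoblast and osteocyte markers (below it), with WT libraries left and CKO libraries right. CKO 3 is highest for Bglap, Dmp1 and Slc13a5 and for 8 of the 11 markers, whereas Spp1 is highest in WT 3 and lowest in WT 2.

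Markers of other cells that can make osteopontin or lie near mineral gave the following sums. Osteoclast markers summed to 971 to 2236 CPM in WT and 944 to 1777 CPM in CKO, with 10 of 10 passing the filter and 9 below 0. Macrophage markers summed to 862 to 1085 CPM in WT and 678 to 845 CPM in CKO, with 10 of 10 below 0, a median of -0.29 and 0 past an adjusted p of 0.05 in edgeR. Hypertrophic chondrocyte markers, among which Col10a1 encodes the collagen of calcifying cartilage, summed to 4469 to 5006 CPM in WT and 4148 to 4733 CPM in CKO. Col10a1 stood at 3318 ± 349 CPM (WT) and 3367 ± 401 CPM (CKO; SD, n = 3; edgeR adjusted p = 0.988). Of this list 0 of 5 genes passed an adjusted p of 0.05 in edgeR. An unadjusted p under 0.05 in edgeR was found for 3 of 5, against 6.5% of all genes. Groups that did not overlap were found for 2 of 5, against 12.3% of all genes. The latter were Ihh, which encodes Indian hedgehog, at 91.3 to 129 CPM in WT and 143 to 176 CPM in CKO (0.54 ± 0.14 on the log2 scale, edgeR adjusted p = 0.605), and Foxa2, a forkhead factor of hypertrophic chondrocytes, at 10.7 to 14.7 CPM in WT and 19.2 to 20.6 CPM in CKO (0.64 ± 0.17, edgeR adjusted p = 0.611). Mmp13, a collagenase gene, stood at 507 to 1569 CPM in WT and 330.0 to 717 CPM in CKO (-1.01 ± 0.40 on the log2 scale, edgeR adjusted p = 0.716). Ihh, Foxa2 and Mmp13 were picked after their values were seen. The osteoclast sum was 2236, 971 and 1790 CPM in WT and 1524, 944 and 1777 CPM in CKO. WT 1 and WT 3 were the highest libraries both for this sum and for Spp1. CKO 2 had the lowest osteoclast sum, followed by WT 2, the lowest library for Spp1. CKO 3, the next lowest for Spp1 after WT 2, was not low for osteoclast markers. The part of osteoclast and macrophage RNA in the Spp1 values was not tested.

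The remaining sums were as follows. Fibroblast markers summed to 10676 to 12861 CPM in WT and 8460 to 11492 CPM in CKO, with 9 of 9 below 0 (median -0.35). An unadjusted p under 0.05 in edgeR was found for 3 of these 9, against 6.5% of all genes. Groups that did not overlap were found for 1 of the 9, against 12.3% of all genes. Pericyte and smooth muscle markers summed to 268 to 386 CPM in WT and 301 to 342 CPM in CKO, with 4 of 6 below 0. Endothelial markers summed to 36.4 to 58.2 CPM in WT and 28.3 to 52.5 CPM in CKO, with 5 of 7 below 0. Adipocyte markers summed to 29.1 to 166 CPM in WT and 24.97 to 36.7 CPM in CKO, with 6 of 6 tested below 0 and Lep listed at 0 in every library. Neutrophil markers summed to 1057 to 1899 CPM in WT and 1256 to 2631 CPM in CKO, with the highest value in CKO 3, and 6 of 8 lay above 0. Erythroid markers summed to 2762 to 3100.4 CPM in WT and 2899 to 4412 CPM in CKO, a sum made mostly of haemoglobin genes. Of these markers 9 of 9 lay above 0 (median 0.35). An unadjusted p under 0.05 in edgeR was found for 4 of the 9, against 6.5% of all genes. Groups that did not overlap were found for 3 of the 9, against 12.3% of all genes. Among the erythroid markers Hemgn had a log2 fold change of 2.11 ± 0.35 (edgeR adjusted p = 0.361). Rhag had one of 2.25 ± 0.44 (edgeR adjusted p = 0.533), and both were picked after their values were seen. Skeletal muscle markers summed to 59.7, 1564 and 31.7 CPM in WT and 193, 250 and 26.0 CPM in CKO. Log2 fold changes were below 0 for 7 of 7, but WT 1 and WT 3 had lower sums than CKO 1 and CKO 2. WT 2, the library with the lowest values of 5 members, also held the most muscle RNA. The part of muscle RNA in those values was not tested.

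Other genes of the pathway were taken from 6 lists, and in edgeR 0 of their 66 tested genes passed an adjusted p of 0.05. Of all genes tested, 12.3% had groups that did not overlap. Genes named for the smallest p-values of their list are likely to be of this kind. Such groups were found for 3 of 13 phosphate, pyrophosphate and purine genes and 1 of 13 acidic and bone matrix genes. The transcription factors had 3 of 12 and the inhibitor and vitamin K list 0 of 8. The sphingomyelin and citrate lists had 2 of 11 and 2 of 9. Of the phosphate, pyrophosphate and purine handling genes, 4 of 13 tested had a log2 fold change above 0 and 9 below 0 (median -0.07, and between -0.14 and -0.042 with single libraries left out). Nt5e, which encodes the ectonucleotidase CD73, measured 670, 666 and 722 CPM in WT and 584, 613 and 476 CPM in CKO, so that the groups did not overlap (fold 0.813, edgeR adjusted p = 0.700). Entpd1, which encodes CD39 and degrades extracellular ATP upstream of CD73, stood at 13.7 ± 3.52 CPM (WT) and 8.35 ± 1.86 CPM (CKO; SD, n = 3; edgeR adjusted p = 0.700), also without overlap. Ank, a pyrophosphate exporter, had a log2 fold change of -0.16 ± 0.14, and the phosphate importer gene Slc20a1 one of 0.06 ± 0.16; both were added after their values were seen.

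Among other acidic and bone matrix genes, 6 of 13 tested lay above 0 and 7 below 0 (median -0.06, but 0.086 without WT 1 and 0.033 without CKO 2). Omd, which encodes osteomodulin, measured 1544, 1794 and 1620 CPM in WT and 1856, 1996 and 1946 CPM in CKO, again without overlap (fold 1.17, edgeR adjusted p = 0.700). Sparc, which encodes osteonectin, stood at 25282 ± 2050 CPM (WT) and 28709 ± 2466 CPM (CKO; SD, n = 3; edgeR adjusted p = 0.793). Transcription factors of mineralizing cells lay above 0 for 9 of 12 (median 0.15, and 0.071 to 0.28 with single libraries left out). Mef2c, a regulator of chondrocyte hypertrophy, had a log2 fold change of 0.34 ± 0.09 (edgeR adjusted p = 0.605) and Dlx5, a homeobox factor of osteoblasts and chondrocytes, one of 0.35 ± 0.12 (edgeR adjusted p = 0.700); the groups of both genes did not overlap. Runx2, the master factor of bone formation, which was added after its values were seen, had a log2 fold change of 0.01 ± 0.17. Sp7, Sost, Mepe and Phex stand both in these pathway lists and among the osteoblast and osteocyte markers.

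The mineralization inhibitor and vitamin K list held 3 of 8 genes above 0 (median -0.03). Its smallest p-values belonged to Ahsg, which encodes the serum protein fetuin-A and stood at 2.80 ± 3.35 CPM (WT) and 0.509 ± 0.531 CPM (CKO; SD, n = 3; edgeR adjusted p = 0.785), with 6.67 CPM in WT 2, and to Gas6, a Gla protein, at a log2 fold change of -0.18 ± 0.14. Sphingomyelin and phosphocholine genes lay above 0 for 5 of 11 (median -0.07, but 0.11 without WT 1). Of these, Sgms2, a sphingomyelin synthase gene, stood at 431 ± 8.93 CPM (WT) and 476 ± 11.9 CPM (CKO; SD, n = 3; edgeR adjusted p = 0.793), and Nsmaf, an adaptor of neutral sphingomyelinase, had a log2 fold change of 0.40 ± 0.15 (edgeR adjusted p = 0.711). Citrate genes lay above 0 for 3 of 9 (median -0.08, but 0.0037 without WT 1). The zinc transporter gene Slc39a1 had a log2 fold change of -0.26 ± 0.12. The groups of Sgms2, Nsmaf and Slc39a1 did not overlap, while those of Ahsg and Gas6 did.

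Promoter windows from 250 bases before to 50 bases after a start site were available for 8 of the 10 members, 12 windows in all (RefSeq, GRCm38.p6). They were searched on both strands for the RUNX core ACCACA (reverse complement TGTGGT), the TATA box TATAAA (reverse complement TTTATA) and the AP-1 motif TGACTCA on either strand. The RUNX core was found in 4 of the 12 windows, those of Spp1, Dmp1, Bglap and Enpp1, and in 16.8% of all windows of this length. The TATA letters were found in 4 windows, those of Spp1, Ibsp, Bglap and Alpl, and in 13.6% of all windows. The AP-1 letters were found in 1 window, that of Phospho1 at base -224, and in 5.205% of all windows. The windows of Ibsp and Bglap are shown because these abundant members both hold the TATA letters close to the start, beginning at base -28 in Ibsp, where they read in reverse, and at base -27 in Bglap. Capitals mark the TATA letters and, in Bglap, the RUNX core that begins at base -132.
Ibsp, chr5:104299037-104299336, plus strand: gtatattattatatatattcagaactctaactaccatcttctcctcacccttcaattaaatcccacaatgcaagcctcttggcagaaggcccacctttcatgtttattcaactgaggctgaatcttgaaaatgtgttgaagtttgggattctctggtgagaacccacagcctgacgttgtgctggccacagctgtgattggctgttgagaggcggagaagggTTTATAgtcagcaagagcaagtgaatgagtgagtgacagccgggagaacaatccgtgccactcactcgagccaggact
Bglap, chr3:88384417-88384716, minus strand: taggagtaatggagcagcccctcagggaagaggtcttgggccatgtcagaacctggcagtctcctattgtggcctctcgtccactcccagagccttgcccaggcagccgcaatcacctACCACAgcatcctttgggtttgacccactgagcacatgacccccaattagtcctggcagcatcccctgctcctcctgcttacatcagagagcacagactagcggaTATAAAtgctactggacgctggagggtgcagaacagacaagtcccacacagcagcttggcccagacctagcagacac
A match is a description of these letters, since no binding was measured.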

How the data were processed

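The authors deposited a table of raw read counts with one row per Ensembl gene identifier. Per the submitters' processing notes the build was GRCm38 and the tools were HISAT2 2.2.1, featureCounts 2.0.1, FastQC 0.11.9, R 4.0.5 and DESeq2 1.30.1. A second table holds a normalized signal which the authors made by dividing the counts by 1 size factor per library, judged from the values; 100% of its nonzero values gave whole reads to within 0.001 read, 0 of these differed from the count table, and edgeR called 1 gene on them.

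Counts were filtered with filterByExpr (minimum count 10), normalised with TMM and tested over 16260 genes with edgeR 4.0.16 in R 4.3.3 (glmQLFit, glmQLFTest; group as the only term; 4 residual degrees of freedom), with Benjamini-Hochberg adjustment. Each SE was taken from the log2 fold change and its F statistic. RPKM is CPM per kilobase of the union of GENCODE M21 exons; 55141 identifiers had a symbol and a length. Library pairs of a group had a chi-square per degree of freedom of 31.4 to 36.5, so none was a duplicate.

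Members and lists were chosen with earlier results of these data known. Named genes are the members, Scin, Bglap2, Bglap3, the 2 smallest p-values of each pathway list and the most abundant marker of each cell type list, of which those a result turns on are given. One gene that this rule names is not reported here. A planned description of protein sequences was not made. Alternatives were DESeq2 1.42.0, limma 3.58.1 (voom on counts, or trend on the deposited signal with a pseudocount of 1), other scalings and filters, the replicate number as a block, each library left out, and the Bglap copies summed. The scripts were tested on simulated data.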

Additional observations from a re-analysis of the deposited data

How the results depend on the processing

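Across the alternatives 0 members passed an adjusted p of 0.05 in any of the 15 settings, and the lowest adjusted p of a member was 0.628, for Dmp1 without WT 1. Of 150 values of members under these settings and the summed Bglap copies, 145 kept their direction. The 150 include values from the reads recovered from the normalized table, which equal the counts and could not turn. Apart from the left-out libraries, the settings refit the same 6 libraries. The exceptions came from single libraries left out: Bglap ranged from -0.068 (without CKO 3) to 0.505, Slc13a5 from -0.037 (without CKO 3) to 0.836, Alpl from -0.090 to 0.016 (without WT 3) and Enpp1 from -0.122 to 0.119 (without CKO 3), with 0.041 without WT 3. Bglap3 ranged from -0.561 to 0.226 (without WT 1). The cause was not tested. The number of genes past the threshold was 1 in edgeR, 82 with DESeq2, 3 with no filter and between 1 and 2 with single libraries left out, 2 being without WT 3. The median of the members was between -0.024 and 0.108 with single libraries left out, and 0.136 when 3 libraries had to reach 1 CPM, which leaves out Phospho1. With the replicate number as a block 1 gene passed, 0 members passed and no call changed. The deviations of same-numbered samples had correlations of -0.019, 0.071 and 0.023, against -0.068 to 0.05 for other pairs. No pairing was seen, but such values cannot exclude one. Depth limits Phospho1, with 5 to 14 reads, and Slc13a5, with 30 to 146. The reads recovered from the normalized table, an alternative added after the data were seen, gave the same values as the counts.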
